A study of Mus musculus with 4 samples.

Results

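Integrins are the cell surface receptors that hold cells to their matrix, and laminins are the large matrix proteins that several of them bind. The genes described here are the integrin alpha and beta subunits, the laminin alpha, beta and gamma chains, the nidogens Nid1 and Nid2 and the perlecan gene Hspg2, chosen by gene symbol among protein-coding genes. They number 40 of the 54532 genes in the tables, 26 integrin subunits, 11 laminin chains and 3 linkers. They were measured by RNA sequencing in 4 libraries whose labelled cell type is the cancer-associated fibroblast (CAF) of mouse breast tumours. The source was tumours labelled Dll1 mcherry+ of the MMTV-PyMT mouse, in which the mouse mammary tumour virus promoter drives the polyoma middle T oncogene in mammary epithelium, on the C57BL/6 strain. The 2 unirradiated libraries, A and B, had no radiation. The 2 irradiated libraries, A and B, came from tumours given 6 Gy of targeted radiation. The labels place the radiation at day 6, carry that day in the titles of both groups, and give neither the interval to collection nor animal ages. Both groups share the oncogene and the Dll1 mcherry label, so every comparison is between irradiated and unirradiated tumours of that kind. A PDGFRa antibody was used to detect fibroblasts after collagenase and hyaluronidase digestion, and the labels do not say which fraction was sequenced.

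Each integrin is a pair of 1 alpha and 1 beta subunit, and the pair decides the ligand. The alpha 1, 2, 10 and 11 subunits pair with beta 1 to bind collagens, alpha 3, 6 and 7 form laminin receptors, and alpha 5, 8, v and IIb recognise the RGD tripeptide of fibronectin, vitronectin and related proteins. Beta 2 and beta 7 integrins belong to leukocytes. Each laminin is a trimer of an alpha, a beta and a gamma chain, and nidogens and perlecan join the laminin network to the collagen IV network of the basement membrane. In mammary tissue, laminin 332, which holds the Lama3 and Lamb3 chains, and integrin alpha 6 beta 4 anchor epithelium, while laminins with Lama2 or Lama4 belong to muscle, vessels and stroma.

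Total counts ranged from 13011489 to 23763830 per library, and 1 count corresponded to 0.0403 to 0.0809 CPM. Levels are in CPM, counts scaled to a common library size with TMM, edgeR's correction for composition. The libraries held much epithelial RNA beside the labelled cell type. Epcam, an epithelial adhesion molecule, was at 1221 and 1201 CPM without radiation (libraries A and B, in that order throughout, with unirradiated values before irradiated ones) and 1085 and 1129 CPM with it, against 5.43 and 5.74, then 22.9 and 24.6 CPM for Pdgfra, the receptor that the antibody detects. The 15 epithelial markers summed to 9633 and 9644 CPM in the unirradiated and 8861 and 9202 CPM in the irradiated libraries, and 4 were higher and 7 lower. The 15 fibroblast markers summed to 629.9 and 594, then 1874 and 1885 CPM, with 11 of 14 tested higher and 1 lower. In such mixtures a change in the number of cells of a type and a change in RNA per cell cannot be told apart. Whether A and B are different animals is not stated. The tests set the difference between the groups against the spread of libraries within a group, and that spread may be technical. Beyond counting error, edgeR's common coefficient of variation within groups was 3.86%.

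The comparison asked which of these receptor and matrix genes differed between libraries from irradiated and unirradiated tumours. Most of them were higher after irradiation. Of the 38 that could be tested, 27 were higher and 3 lower past the threshold of 0.05 for adjusted p (Benjamini-Hochberg over 15961 tested genes, edgeR quasi-likelihood test), and 8 did not pass. Over all tested genes 33.9% were higher and 32.5% lower, 66.4% in either direction. These shares are also the background for the counts by group of genes and of marker and related genes given here. At least 2-fold higher were 16 of the 38 genes, against 10.8% of all tested genes, and at least 2-fold lower were 2, against 10.1%. The median log2 fold change was 0.74, against -0.0042 over all tested genes. The groups did not overlap for 33 of the 38 genes, as for 82.5% of all tested genes. That share is also the background for each single gene whose groups are said below not to overlap. Summed over the 40 genes, levels were 2062 and 2085 CPM in the unirradiated and 3634 and 3474 CPM in the irradiated libraries. Lamc3 and Itgad had too few counts to be tested. These are long genes, with a median length of 6980 bases against 3941 for all tested genes. Each library's smooth dependence on length and GC content was also removed (the length and GC trend below). The median of the 38 genes was then 0.64, and 26 were higher and 5 lower. Over all 15961 tested genes the median was then -0.061, with 4547 higher and 5632 lower.

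**Figure D1:**
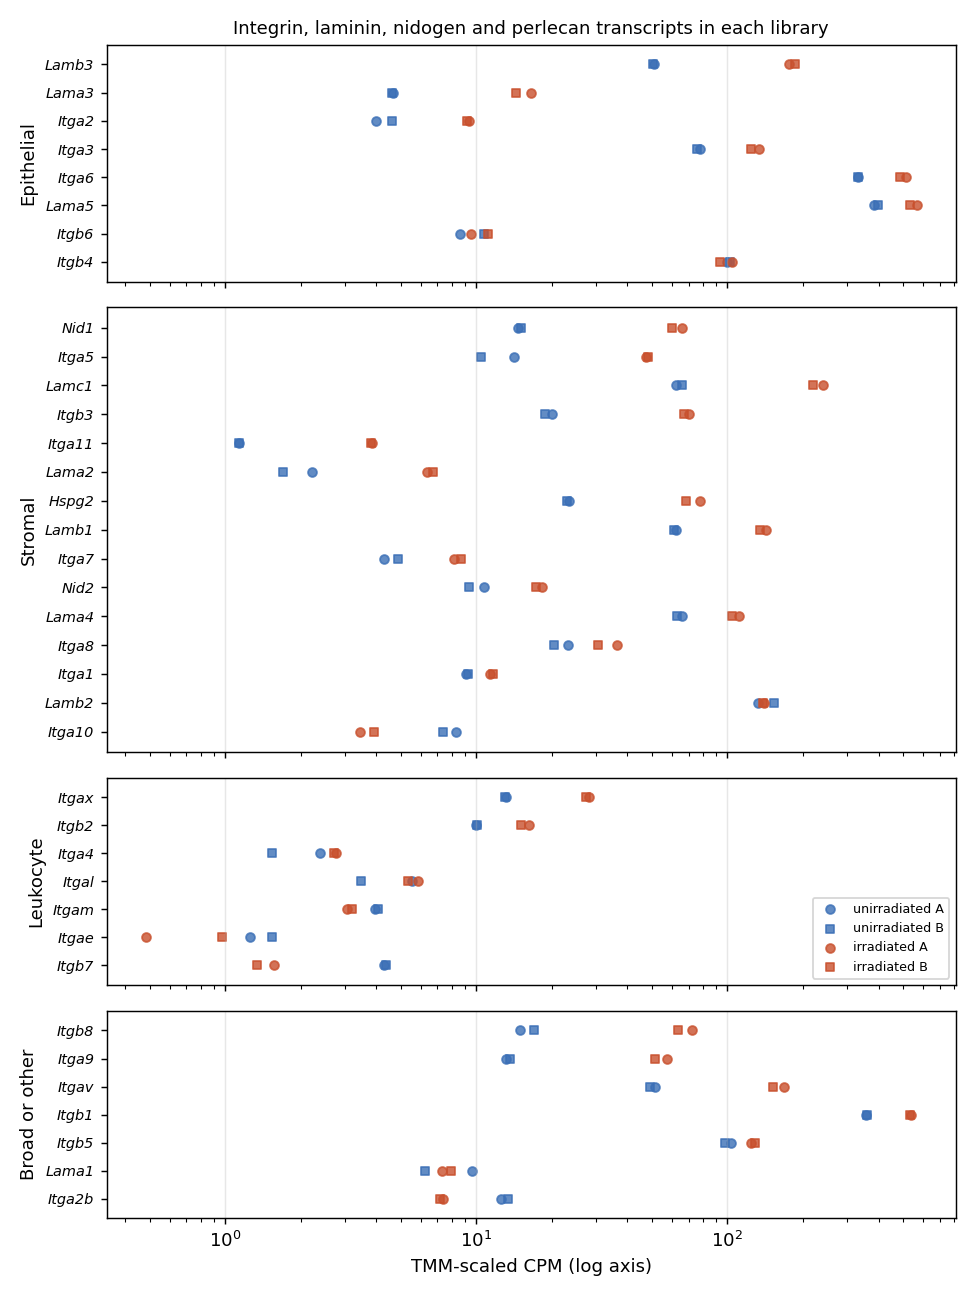
TMM-scaled CPM (log axis) of 37 of the 38 tested genes in each library, by group of genes. Circles are A libraries, squares B libraries, blue unirradiated and orange irradiated, and genes are ordered by log2 fold change within a panel. The groups are apart for 32 of these and overlap for 5, Itgb4, Itgb6, Itgal, Lama1 and Lamb2.

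The genes were set into epithelial, stromal and leukocyte groups by textbook expression, and several are made by more than 1 cell type (Lama5 and Itga6 also by endothelium, for example). The stromal group holds Lamb1 and Lamc1, the beta and gamma chains of most laminins, so its values need not be those of stroma alone. Of 9 epithelial genes 7 were higher and 0 lower, and the median of their log2 fold changes was 0.74. The 15 epithelial markers, of which 4 rose and 7 fell, had a median of -0.11. Of 15 tested stromal genes 13 were higher and 1 lower (median 1.15, the value of Lamb1). Of 7 tested leukocyte genes 2 were higher and 1 lower (median 0.25). That median rested on single libraries, being 0.64 without unirradiated A and 0.0067 without unirradiated B, and it was 0.076 with the length and GC trend removed. The 7 genes that are broadly expressed or belong to other cells had 5 higher and 1 lower. Over all tested genes 33.9% were higher and 32.5% lower, so the leukocyte genes were called no more often than genes at large in either direction. Summed levels were 1004 and 1025, then 1620.4 and 1549.7 CPM for the epithelial genes, 455 and 465, then 982 and 924 CPM for the stromal genes, and 40.7 and 38.0, then 58.0 and 56.0 CPM for the leukocyte genes, unirradiated before irradiated. The leukocyte genes thus made up the smallest of these sums in every library. Differences between the groups of genes were not tested.

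**Figure D2:**
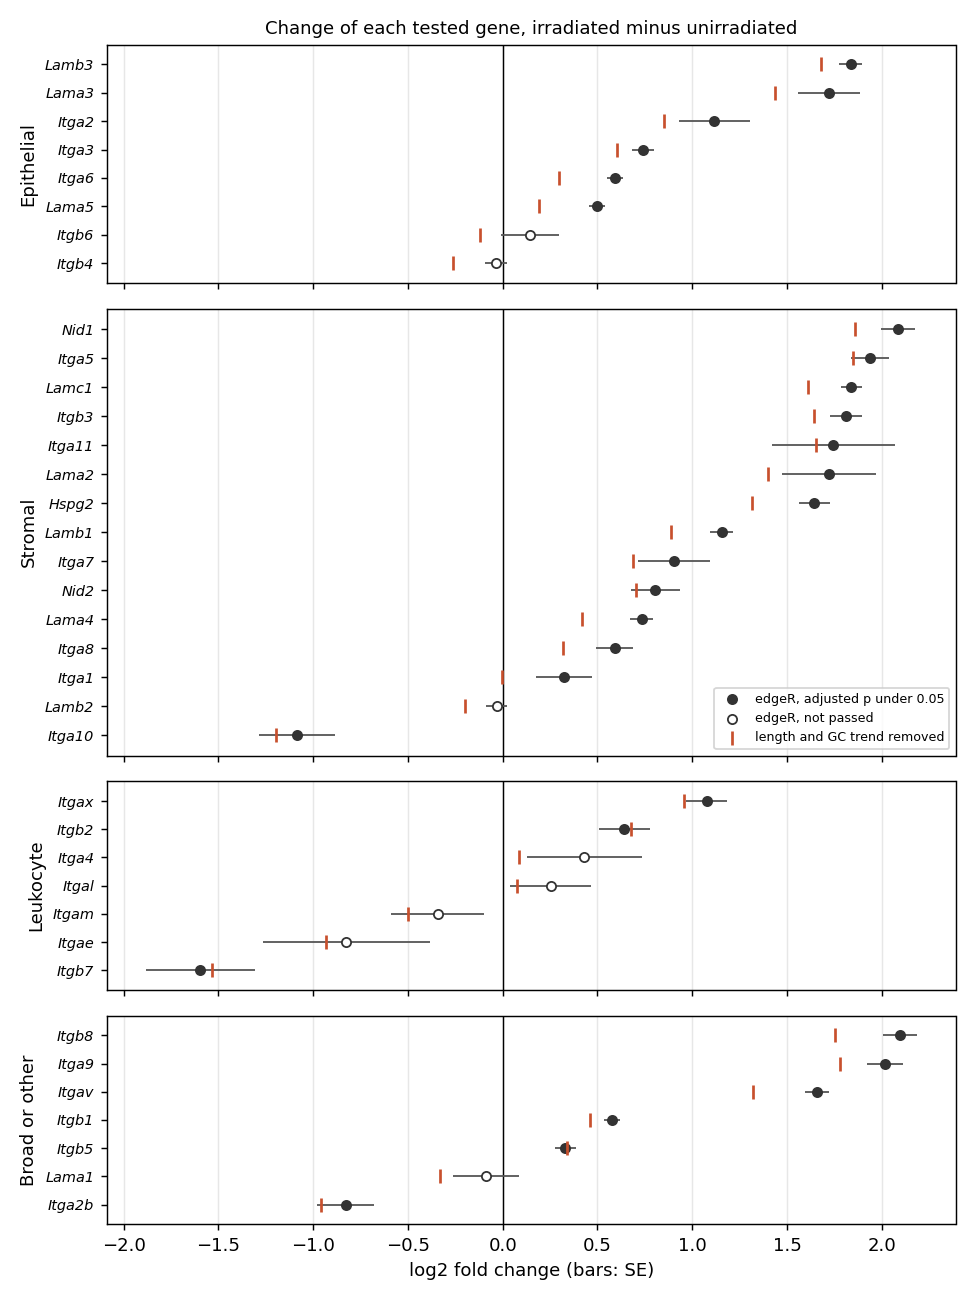
Log2 fold change, irradiated minus unirradiated, of the same 37 genes with its standard error, by group of genes. Filled points passed an adjusted p of 0.05, open points did not, and orange ticks give the value once the length and GC trend is taken out, which lies to the left of the point for most genes. Nid1, Itgb8 and Itga9 lie above 2 and Itgb7 lies lowest at -1.60.

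Promoters are shown for the genes with the largest rise among broadly expressed, stromal and epithelial genes (Itgb8, Nid1 and Lamb3) and for the leukocyte genes with the largest rise and the largest fall (Itgax and Itgb7), by the log2 fold changes given here. Some of these ranks depend on the setting, with Itga9 above Itgb8 when the length and GC trend is removed, Itga5 above Nid1 without unirradiated A, and Lama3 above Lamb3 without irradiated B. Each is the 250 bases before the most upstream RefSeq start on GRCm38.p6, 5′ to 3′ on the gene's strand. Capitals mark TGANTCA, the AP-1 motif, and GGGCGG or its reverse complement CCGCCC, the GC box.
Itgb8, chr12:119238277-119238526, minus strand: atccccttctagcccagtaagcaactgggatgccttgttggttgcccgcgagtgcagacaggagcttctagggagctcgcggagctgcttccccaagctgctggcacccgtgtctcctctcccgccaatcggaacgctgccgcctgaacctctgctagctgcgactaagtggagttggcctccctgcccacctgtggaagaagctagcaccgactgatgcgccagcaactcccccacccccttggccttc
Nid1, chr13:13437352-13437601, plus strand: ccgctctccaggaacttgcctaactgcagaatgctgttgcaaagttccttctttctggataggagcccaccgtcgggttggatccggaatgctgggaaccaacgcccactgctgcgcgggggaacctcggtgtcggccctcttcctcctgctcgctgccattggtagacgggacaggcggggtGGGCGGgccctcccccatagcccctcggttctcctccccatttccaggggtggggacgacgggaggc
Lamb3, chr1:193301744-193301993, plus strand: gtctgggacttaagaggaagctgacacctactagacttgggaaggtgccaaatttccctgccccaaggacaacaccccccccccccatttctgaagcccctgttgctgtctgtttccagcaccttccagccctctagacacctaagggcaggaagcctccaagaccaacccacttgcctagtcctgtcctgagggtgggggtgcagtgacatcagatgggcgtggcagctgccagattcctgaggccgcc
Itgax, chr7:128129300-128129549, plus strand: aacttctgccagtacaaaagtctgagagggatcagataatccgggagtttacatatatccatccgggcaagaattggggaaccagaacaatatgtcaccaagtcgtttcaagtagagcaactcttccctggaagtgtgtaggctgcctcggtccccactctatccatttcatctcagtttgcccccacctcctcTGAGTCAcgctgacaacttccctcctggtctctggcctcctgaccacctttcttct
Itgb7, chr15:102231936-102232185, minus strand: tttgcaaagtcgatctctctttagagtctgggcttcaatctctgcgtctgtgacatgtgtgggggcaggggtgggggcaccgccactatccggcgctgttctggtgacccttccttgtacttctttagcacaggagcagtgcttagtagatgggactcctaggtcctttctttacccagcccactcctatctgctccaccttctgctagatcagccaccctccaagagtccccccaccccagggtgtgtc
The window of Itgax held 1 TGANTCA and that of Nid1 held 1 GC box, whereas the other 3 held neither, and no matches overlapped. RefSeq windows were matched by symbol for 25 of the 40 genes. Among these, TGANTCA occurred in 1 and a GC box in 10, against 6.85% and 33.0% of 27025 windows over all genes. GC content was 62.4% for Itgb8, 64.4% for Nid1, 58.8% for Lamb3, 56.0% for Itgb7 and 50% for Itgax, with a median of 58.8% over the 25 windows and 52.0% over all windows. The deposited gene models of Lamb3 and Itgb8 begin upstream of the whole window, at position 193207699 of chromosome 1 and position 119238802 of chromosome 12. Those of Nid1, Itgax and Itgb7 begin within the window, at positions 13437551, 128129547 and 102231944 of their chromosomes. The counts do not show which start was used.

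Of the 4 alpha subunits that recognise RGD, the motif of fibronectin and vitronectin, 3 rose and 1 fell. Itgav encodes the alpha v subunit, which pairs with beta 1, 3, 5, 6 and 8 (chromosome 2, 83724397 to 83806916). It was at 51.5 and 49.4 CPM in the unirradiated and 169 and 152 CPM in the irradiated libraries (log2 fold change 1.66 with an SE of 0.0616, adjusted p = 5.88e-34, edgeR). Itga5, the fibronectin receptor subunit (chromosome 15, 103344286 to 103366763), was at 14.1 and 10.4, then 47.3 and 48.4 CPM (log2 fold change 1.94 with an SE of 0.101). Both genes had every irradiated library above every unirradiated one. Itga8, which with beta 1 binds nephronectin (chromosome 2, 12106632 to 12301922), rose from 23.1 and 20.4 to 36.3 and 30.4 CPM (log2 fold change 0.59, and 0.32 with the length and GC trend removed). Itga2b, the platelet and megakaryocyte subunit (chromosome 11, 102453297 to 102470122), fell from 12.6 and 13.3 to 7.40 and 7.18 CPM (log2 fold change -0.83 with an SE of 0.150), with no overlap of the groups. Of the other 6 platelet markers, Gp1bb was at 0 in every library, Ppbp and Gp6 had counts in 1 irradiated library each, and Pf4, a platelet chemokine, was at 1.85 and 1.05, then 2.77 and 2.62 CPM (log2 fold change 0.83, adjusted p = 0.024, edgeR). Gp9 was between 0 and 0.541 CPM, and Gp1ba did not pass. Their part in the change of Itga2b was not tested.

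Itga9, whose alpha 9 beta 1 integrin binds tenascin-C and osteopontin (chromosome 9, 118606690 to 118901003), rose from 13.2 and 13.6 to 57.3 and 51.5 CPM (log2 fold change 2.02 with an SE of 0.0954, adjusted p = 2.50e-28, edgeR). Its groups did not overlap. Itga9 and Itga5 changed places in size with the setting, for example at 1.99 and 2.20 without unirradiated A and at 1.78 and 1.85 with the length and GC trend removed. Its related subunit gene Itga4, the leukocyte receptor for VCAM-1, was at 2.39 and 1.54, then 2.77 and 2.70 CPM and did not pass (log2 fold change 0.43, adjusted p = 0.209, edgeR). The length and GC trend took the value of Itga4 to 0.08.

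Of the 4 collagen receptor alpha subunits 3 rose and 1 fell. Itga11, a fibroblast subunit for fibrillar collagen (chromosome 9, 62677826 to 62783982), rose from 1.13 and 1.13 to 3.85 and 3.79 CPM (log2 fold change 1.75 with an SE of 0.323). Itga2, the collagen receptor of epithelium and platelets (chromosome 13, 114833081 to 114932100), rose from 3.997 and 4.61 to 9.38 and 9.16 CPM (log2 fold change 1.12 with an SE of 0.189). Itga10, known from cartilage (chromosome 3, 96645584 to 96664519), fell from 8.29 and 7.36 to 3.43 and 3.91 CPM (log2 fold change -1.09 with an SE of 0.200, adjusted p = 3.17e-06, edgeR), the only fall among the stromal genes. Itga1 lies beside Itga2 on chromosome 13, and the gene Pelo, with 124, 93, 60 and 103 counts in unirradiated A, unirradiated B, irradiated A and irradiated B, lies within it on the same strand. It was at 9.13 and 9.30, then 11.4 and 11.6 CPM and passed narrowly (log2 fold change 0.32, adjusted p = 0.0476, edgeR). That call was lost with DESeq2, upper-quartile scaling, a filter at 1 CPM, the test against 1.5-fold and the replicate block and without any 1 of the 4 libraries, and the value became -0.0029 with the length and GC trend removed. Over its 14 alternatives adjusted p ranged from 0.0292 to 1.

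All 3 laminin receptor alpha subunits rose, each by less than 2-fold. Itga6 (chromosome 2, 71745616 to 71858416), the partner of beta 4 in hemidesmosomes and of beta 1 elsewhere, was the most abundant alpha subunit per length in every library. It rose from 330.4 and 332 to 514 and 487 CPM (log2 fold change 0.59 with an SE of 0.0422), and its value was 0.30 with the length and GC trend removed. Itga3 (chromosome 11, 95044474 to 95076801), an epithelial laminin receptor, rose from 77.7 and 75.5 to 133 and 124 CPM (log2 fold change 0.74 with an SE of 0.0578). Itga7 (chromosome 10, 128933818 to 128958282), the laminin receptor of muscle, rose from 4.30 and 4.85 to 8.18 and 8.72 CPM (log2 fold change 0.90 with an SE of 0.190). In a test against a 1.5-fold change, Itga3 still passed (adjusted p = 0.00538, edgeR), but Itga6 and Itga7 did not (adjusted p = 0.523 and 0.0604). Smooth muscle and pericyte markers moved beside Itga7: 7 of 10 were higher, and their sum was 262 and 249, then 447 and 442 CPM. Of 3 tested skeletal muscle markers 0 were higher and 2 lower. Their part in its rise was not tested.

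Among beta subunits, Itgb8 had the largest rise. Its product pairs with alpha v and activates latent TGF-beta (chromosome 12, 119158022 to 119238802). The 4 libraries held 14.9 and 16.9 CPM without and 72.0 and 63.8 CPM with radiation (log2 fold change 2.10 with an SE of 0.0895, adjusted p = 1.04e-30, edgeR). Itgb3, the beta subunit of the vitronectin and platelet receptors (chromosome 11, 104608000 to 104670476), rose from 20.1 and 18.8 to 70.5 and 66.9 CPM (log2 fold change 1.81 with an SE of 0.0826). Itgb3 rose while its platelet partner gene Itga2b fell and its other partner gene Itgav rose.

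Itgb1, the common partner of most alpha subunits (chromosome 8, 128685654 to 128733200), was the most abundant beta subunit and rose from 358 and 359 to 537 and 533 CPM (log2 fold change 0.58 with an SE of 0.0411). Itgb5, a further alpha v partner, rose from 103 and 97.7 to 124 and 129 CPM (log2 fold change 0.33 with an SE of 0.0551). Neither passed a test against 1.5-fold (adjusted p = 0.738 and 1, edgeR). The groups did not overlap for either gene, as for 82.5% of all tested genes.

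The epithelial beta subunits did not pass. Itgb4, the hemidesmosome subunit that pairs only with alpha 6 (chromosome 11, 115974709 to 116008412), was at 99.5 and 103, then 104 and 93.8 CPM (log2 fold change -0.034 with an SE of 0.0582, adjusted p = 0.612, edgeR). With the length and GC trend removed it was lower (log2 fold change -0.26, adjusted p = 4.52e-05, edgeR). Itgb6, which with alpha v forms an epithelial receptor that activates TGF-beta, was at 8.59 and 10.7, then 9.56 and 11.1 CPM (log2 fold change 0.14, adjusted p = 0.413). The groups overlapped for both genes. Per length, the ratio of Itga6 to Itgb4 was 2.58 and 2.51 in the unirradiated and 3.83 and 4.03 in the irradiated libraries. The ratio was higher in both irradiated libraries. With 2 libraries per group the smallest two-sided exact p for such a ratio comes from 2 of 6 possible splits and cannot reach 0.05, so ratios and shares were not tested.

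Leukocyte integrin genes were low and moved in different directions. Itgax, the CD11c subunit of dendritic cells and macrophages (chromosome 7, 128129547 to 128150657), rose from 13.2 and 13.0 to 28.1 and 27.3 CPM (log2 fold change 1.08 with an SE of 0.109, adjusted p = 2.17e-13, edgeR). Itgb2, the beta subunit shared by the CD11 subunits (chromosome 10, 77530252 to 77565708), rose from 9.96 and 10.03 to 16.2 and 15.1 CPM (log2 fold change 0.64 with an SE of 0.134). Itgb7, which pairs with alpha 4 in gut homing and with alpha E in intraepithelial lymphocytes (chromosome 15, 102215995 to 102231944), fell from 4.30 and 4.37 to 1.56 and 1.33 CPM (log2 fold change -1.60 with an SE of 0.288, adjusted p = 2.03e-06, edgeR). For these 3 genes the groups did not overlap.

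The other leukocyte subunits did not pass. Itgam, the CD11b subunit of myeloid cells, was at 3.94 and 4.05, then 3.07 and 3.19 CPM (log2 fold change -0.34, adjusted p = 0.214, edgeR). It lies next to Itgax on chromosome 7, in a cluster that also holds Itgad. Itgal, the CD11a subunit of lymphocytes, was at 5.55 and 3.48, then 5.83 and 5.37 CPM (log2 fold change 0.25, adjusted p = 0.296). Its value was 0.68 and passed (adjusted p = 0.0345) without unirradiated A, within a range of 0.0345 to 1 over its 14 alternatives. Itgae, the alpha E subunit that binds E-cadherin, was at 1.253 and 1.54, then 0.481 and 0.968 CPM (log2 fold change -0.83, adjusted p = 0.0921). The gene Haspin, with 91, 62, 116 and 135 counts in the same order of libraries, lies on the opposite strand of Itgae, and the kit does not mark strand. Itgad had 2 counts in the unirradiated and 0 in the irradiated libraries, so no ratio is given.

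Markers of several leukocytes moved beside these genes. Of 12 macrophage markers 11 were higher and 1 lower, and their sum was 463 and 459 CPM in the unirradiated and 914 and 915 CPM in the irradiated libraries. Adgre1, which encodes the F4/80 antigen, rose from 6.92 and 4.37 to 22.5 and 22.1 CPM, and the pan-leukocyte gene Ptprc from 13.1 and 11.7 to 18.6 and 18.3 CPM (log2 fold change 0.56). Of 6 tested T and NK cell markers 0 were higher and 4 lower, with sums of 11.6 and 10.5, then 4.87 and 4.76 CPM over the 10 listed. Klrb1c, too low to be tested, was at 0.0597 and 0.162 CPM in the unirradiated libraries and at 0 in both irradiated ones. Dendritic cell markers had 1 of 2 tested higher and 1 lower, with sums of 7.64 and 7.12, then 10.6 and 9.64 CPM over the 6 listed. B and plasma cell markers had 1 of 5 higher and 4 lower, with sums of 10.6 and 9.95, then 8.78 and 8.15 CPM. Ms4a1, also too low to be tested, was at 0.656 and 0.405 CPM in the unirradiated libraries and at 0 in both irradiated ones. Neutrophil markers had 6 of 7 lower and differed within the irradiated group, with sums of 70.6 and 64.5 CPM unirradiated, 54.2 CPM for irradiated A and 21.4 CPM for irradiated B. Without irradiated A the log2 fold changes of Itgam and Itgb2 were -0.31 and 0.61, and without irradiated B they were -0.37 and 0.71. The part of these cell types in the changes of Itgax, Itgb2 and Itgb7 was not tested.

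Per length, alpha v, alpha 5, alpha 9, beta 3 and beta 8 took larger shares of the integrin subunits in both irradiated libraries. Itga6 made up 49.96 and 51.4% of alpha subunit counts per kilobase in the unirradiated and 43.4 and 43.6% in the irradiated libraries. Itgav made up 6.55 and 6.42%, then 12.0 and 11.4%, Itga5 3.89 and 2.95%, then 7.30 and 7.93%, and Itga9 2.34 and 2.47%, then 5.67 and 5.41%. Itga3 was at 18.6 and 18.5%, then 17.8 and 17.6%, lower in both irradiated libraries. The shares of Itgav, Itga5 and Itga9 were higher in both irradiated libraries than in either unirradiated one.

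**Figure D3:**
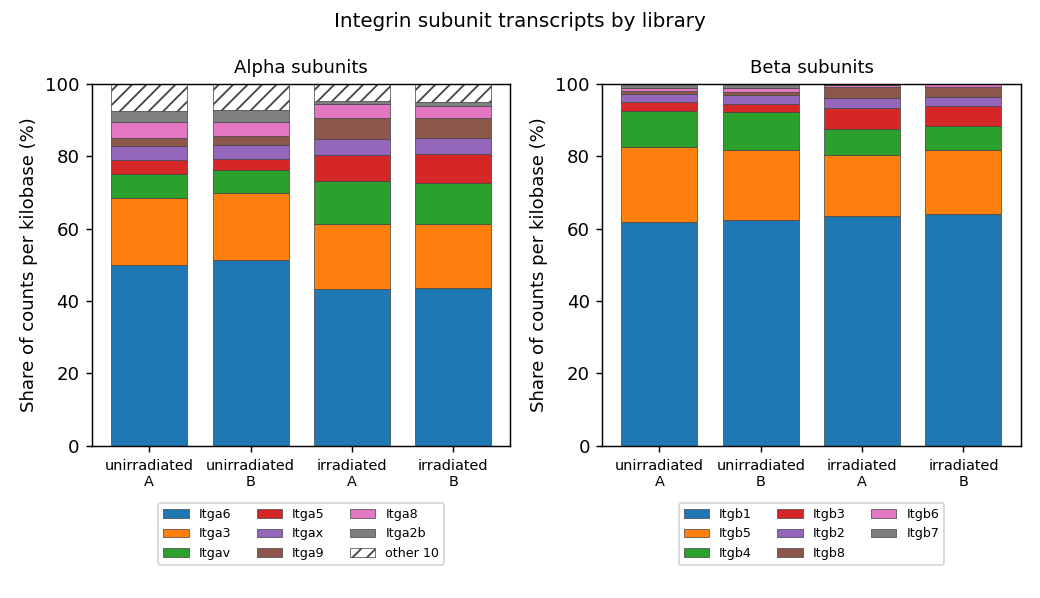
Share of counts per kilobase of gene length within the integrin alpha and the integrin beta subunits, 1 bar per library. Each colour is a subunit, and the hatched part sums the 10 remaining alpha subunits. Itga6 and Itgb1 take the largest shares in every library.

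Among beta subunits Itgb1 held 61.9 and 62.3% in the unirradiated and 63.6 and 63.9% in the irradiated libraries, Itgb5 20.5 and 19.5%, then 16.9 and 17.7%, and Itgb4 10.01 and 10.4%, then 7.17 and 6.54%. Itgb3 was at 2.40 and 2.25%, then 5.77 and 5.55% and Itgb8 at 0.951 and 1.08%, then 3.14 and 2.82%. Itgb1 and Itga6 stayed the most abundant subunits, while Itgb4 took a smaller share after irradiation. These shares rest on the deposited gene length, which can exceed that of the transcripts in use. Without division by length, the difference in the share of Itgb1 turned from 1.64 to -0.0070 percentage points. That of Itga5 went from 4.19 to 2.61 points, that of Itgb8 from 1.97 to 4.77 points and that of Itgb4 from -3.33 to -5.62 points.

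Lamb3 and Lama3, chains of laminin 332, the anchoring laminin of epithelium, both rose. Lamb3 (chromosome 1, 193207699 to 193343878) was at 51.0 and 50.5 CPM in the unirradiated and 176 and 186 CPM in the irradiated libraries (log2 fold change 1.84 with an SE of 0.059, adjusted p = 1.88e-37, edgeR). Lama3, its alpha chain, rose from 4.65 and 4.61 to 16.5 and 14.4 CPM (log2 fold change 1.72 with an SE of 0.165). Per length, Lama3 was at 0.431 and Lamb3 at 7.67 CPM per kilobase in the mean of the unirradiated group. In the irradiated group Lama3 was at 1.44 and Lamb3 at 27.4 CPM per kilobase. Lama3 was thus the less abundant of these chains in both groups. The ratio of Lamb3 to Lama3 was 17.8 and 17.8 in the unirradiated and 17.3 and 21 in the irradiated libraries, and the groups overlapped. On the opposite strand Lamb3 overlaps G0s2, with 678, 391, 300 and 461 counts in unirradiated A, unirradiated B, irradiated A and irradiated B, and Hsd11b1, with 25, 20, 96 and 117. Lamb3 itself had 855, 624, 2920 and 4621 counts, so its unirradiated values were of the size of those of G0s2. Reads of the overlapping stretches cannot be assigned by strand, which makes Lamb3 uncertain to that extent.

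Among the other alpha chains, Lama5, the chain of epithelial and vascular basement membranes (chromosome 2, 180176373 to 180225859), was the most abundant. It rose from 385 and 399 to 569 and 536 CPM (log2 fold change 0.50 with an SE of 0.0417), a value that became 0.19 with the length and GC trend removed and did not pass a test against 1.5-fold. Lama4, the chain of vessel and mesenchyme laminin (chromosome 10, 38965515 to 39110188), rose from 66.2 and 62.9 to 111 and 105 CPM (log2 fold change 0.73 with an SE of 0.0608, and 0.42 with the length and GC trend removed). Lama2, the chain of muscle and nerve laminin (chromosome 10, 26980036 to 27619758), rose from 2.21 and 1.70 to 6.37 and 6.74 CPM (log2 fold change 1.72 with an SE of 0.249). Lama1, the chain of the early embryo, was at 9.60 and 6.23, then 7.28 and 7.95 CPM with overlapping groups (log2 fold change -0.087, adjusted p = 0.67, edgeR). Lama2 stayed low in both groups, and Lama5 made up 82.7 and 84.6% of alpha chain counts per kilobase in the unirradiated and 80.8 and 80.7% in the irradiated libraries. Endothelial markers moved beside Lama4 and Lama5. Of 12, 11 were higher and 0 lower, and their sum was 99.6 and 102, then 222 and 210.1 CPM. Pecam1, the endothelial adhesion molecule CD31, was at 21.7 and 20.6, then 24.7 and 25.1 CPM (log2 fold change 0.23). Of 4 tested Schwann cell markers, beside Lama2, 0 were higher and 3 lower. Their part in the laminin changes was not tested.

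Lamb1, the beta chain of most laminins (chromosome 12, 31265234 to 31329644), rose from 62.3 and 61.5 to 142 and 134 CPM (log2 fold change 1.15 with an SE of 0.0589). Lamb2, the beta chain of synapse, kidney and vessel laminins (chromosome 9, 108479736 to 108490530), was at 133 and 153, then 139.8 and 139 CPM with overlapping groups (log2 fold change -0.033 with an SE of 0.0544, adjusted p = 0.606, edgeR). With the length and GC trend removed Lamb2 was lower (log2 fold change -0.20, adjusted p = 4.71e-04, edgeR). The order of the beta chains per length differed between the groups. Lamb2 made up 60.9 and 64.6% of beta chain counts per kilobase in the unirradiated and 36.0 and 35.3% in the irradiated libraries, Lamb3 21.5 and 19.6%, then 41.6 and 43.7%, and Lamb1 17.5 and 15.9%, then 22.4 and 20.99%. Lamb2 led in both unirradiated libraries and Lamb3 led in both irradiated ones. Lamb3 overlaps G0s2 and Hsd11b1 on the opposite strand, so its share is uncertain to that extent.

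**Figure D4:**
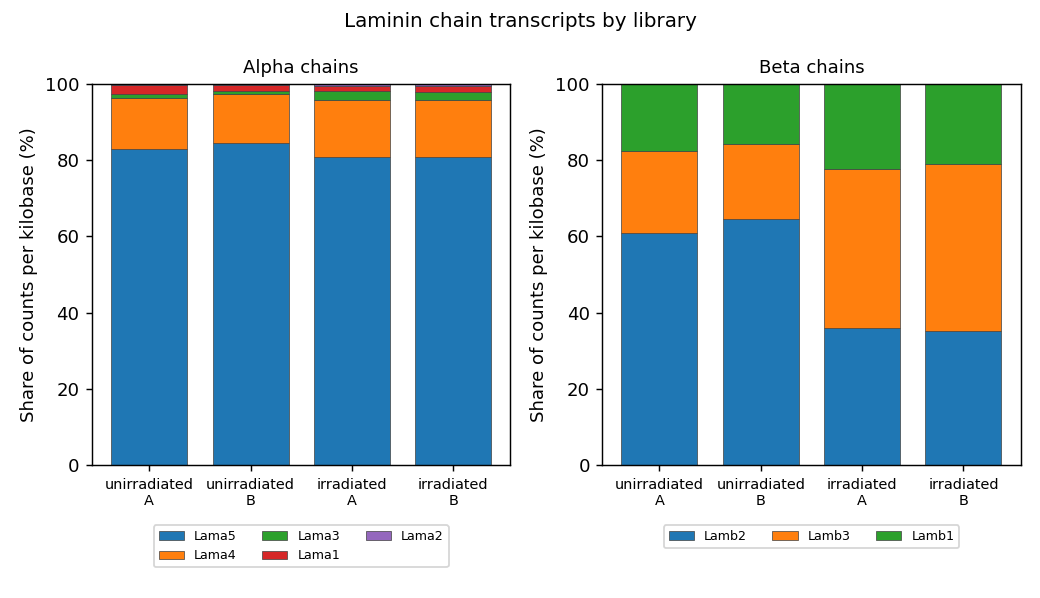
Share of counts per kilobase of gene length within the laminin alpha and beta chains, 1 bar per library, each colour a chain. Lama5 holds over 80% of the alpha chains in every library, and Lamb2 gives way to Lamb3 as the largest beta chain. Lamb3 overlaps other genes on the opposite strand, so its share is uncertain to that extent.

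Lamc1, the gamma chain of most laminins (chromosome 1, 153218922 to 153332786), rose from 62.5 and 65.9 to 239.8 and 219.9 CPM (log2 fold change 1.84 with an SE of 0.0565, adjusted p = 1.44e-38, edgeR). Both irradiated libraries lay above both unirradiated ones. Lamc3 had 0 counts in the unirradiated libraries, which allows up to 0.103 CPM (3 counts over the group), and 4 and 10 counts in the irradiated libraries. Set against that floor, and with the irradiated counts taken as exact, it was at least 3.28-fold higher. With counting error in both groups, the lower limit of the 95% interval of the ratio was 2.33.

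The linkers of the basement membrane rose. Nid1, nidogen-1, which bridges laminin gamma 1 and collagen IV (chromosome 13, 13437551 to 13512269), was at 14.6 and 15.1 CPM in the unirradiated and 66.2 and 60.4 CPM in the irradiated libraries (log2 fold change 2.09 with an SE of 0.09, adjusted p = 1.94e-30, edgeR). No tested stromal gene had a larger log2 fold change, except that without unirradiated A Itga5 was at 2.20 and Nid1 at 2.06. Nid2, its relative (chromosome 14, 19751265 to 19811787), rose from 10.7 and 9.39 to 18.2 and 17.3 CPM (log2 fold change 0.81 with an SE of 0.130). Nid2 overlaps Rtraf, an abundant gene on the opposite strand with 1332, 1152, 1254 and 1856 counts in the order unirradiated A, unirradiated B, irradiated A and irradiated B, so Nid2 values are uncertain. The ratio of Nid1 to Nid2 per length was 1.02 and 1.20 in the unirradiated and 2.71 and 2.60 in the irradiated libraries. Hspg2, encoding perlecan, a heparan sulphate proteoglycan of basement membranes (chromosome 4, 137468769 to 137570630), rose from 23.4 and 23.0 to 77.9 and 68.1 CPM (log2 fold change 1.64 with an SE of 0.0811).

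Other basement membrane genes moved mostly the same way. Of 19 tested, 12 were higher and 5 lower (median 0.93 on the log2 scale). The largest rises were Frem2, an epithelial basement membrane protein, from 0.776 and 0.647 to 7.46 and 5.53 CPM, Col18a1, the source of endostatin, from 44.0 and 42.7 to 248 and 243 CPM, and Fbln2, encoding fibulin-2, from 90.7 and 98.0 to 346 and 341 CPM. Among the lower genes, Smoc2, a calcium-binding matrix protein, fell from 15.3 and 19.7 to 7.46 and 7.63 CPM. Col4a4, a collagen IV chain of kidney and other specialised membranes, fell from 4.24 and 4.37 to 2.83 and 1.82 CPM. Npnt, encoding nephronectin, the ligand of the Itga8 product, fell from 110.1 and 112 to 67.1 and 67.3 CPM (log2 fold change -0.72) while Itga8 rose. The fibroblast, endothelial and macrophage markers described here were mostly higher too, and their part was not tested.

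Of 17 tested integrin ligand genes 14 were higher and 1 lower (median 1.72). Fn1, encoding fibronectin, the ligand of the Itga5 product, rose from 80.0 and 74.8 to 417 and 384 CPM (log2 fold change 2.37). Vcam1, the ligand of the alpha 4 subunit, rose from 3.52 and 3.07 to 28.3 and 29.4 CPM, and Fgb, a fibrinogen chain, from 0.716 and 0.162 to 17.0 and 19.0 CPM. The lower gene was Tgfb3, whose latent form is a ligand of alpha v integrins, at 155 and 162, then 141 and 141 CPM (log2 fold change -0.17).

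All 8 tested laminin receptors other than integrins and their modifying enzymes passed, 6 higher and 2 lower. Over all tested genes 66.4% passed, 33.9% higher and 32.5% lower. Dag1, encoding dystroglycan, rose from 139 and 141 to 476 and 461 CPM, the syndecan gene Sdc4 from 511 and 508 to 1477 and 1496 CPM and Bcam, a laminin alpha 5 receptor, from 44.8 and 41.3 to 89.6 and 91.0 CPM. Large2, a glycosyltransferase that builds the laminin-binding glycan of dystroglycan, fell from 120.2 and 118 to 53.6 and 53.9 CPM (log2 fold change -1.15), whereas Dag1 rose. Rpsa, a ribosomal protein also called the laminin receptor, fell from 1652 and 1644 to 1439 and 1526 CPM (log2 fold change -0.15). Processed pseudogenes of Rpsa are listed as genes of their own, and how shared reads were assigned is not given in the sources used here.

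Focal adhesion adaptors link integrins to actin. Of 27 tested 15 were higher and 5 lower (median 0.29), against 33.9% and 32.5% of all tested genes. Among them 3 rises and 0 falls reached 2-fold, against 10.8% and 10.1% of all tested genes. Vcl, encoding vinculin, rose from 45.3 and 48.4 to 133 and 127 CPM (log2 fold change 1.47), Tns1, encoding tensin-1, from 7.64 and 9.30 to 21.3 and 20.5 CPM and Parvb, encoding beta-parvin, from 1.91 and 1.46 to 3.67 and 3.59 CPM. Fermt1, the epithelial kindlin that activates integrins, fell from 25.1 and 20.5 to 12.1 and 14.5 CPM (log2 fold change -0.77). Sharpin, an inhibitor of integrin activation, and Ptk2b, a focal adhesion kinase relative, fell with log2 fold changes of -0.45 and -0.37. Of 4 hemidesmosome genes beside Itga6 and Itgb4, 3 were higher and 0 lower. Plec, encoding plectin, Dst, encoding dystonin, and the tetraspanin gene Cd151 rose with log2 fold changes of 0.43, 0.22 and 0.13. All were below the 0.59 of Itga6 in the same fit. Itga6 was at 0.30 with the length and GC trend removed, a setting not given for these 3 genes.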

How the data were processed

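RNA was selected for poly(A) tails and sequenced with a non-directional kit, per the labels' protocols. STAR 2.5, HTSeq 0.6.1, DESeq2 and mm10 appear in the submitters' processing notes. How reads were counted, and on which annotation release, is not given in the sources used here. Each library's table, as deposited by the authors, holds raw counts for every gene and a gene length. All 40 genes have the same coordinates in GENCODE M21. Counts were tested with edgeR 4.0.16 (R 4.3.3; filterByExpr, TMM, quasi-likelihood F-test, Benjamini-Hochberg over 15961 genes, threshold 0.05), and a standard error is |log2 fold change| divided by the root of the F statistic. The fit had 2 residual degrees of freedom, so spread was pooled across genes. The code was tested on simulated data. All member genes were accounted for, and values per library are given for those with a mean of at least 5 CPM or a called 2-fold change. From each related list at most 3 called genes per direction with a mean of at least 1 CPM were named, largest change first. Members, gene lists and groups were chosen with earlier results of these data known. The alternatives tried were scaling by RLE or the upper quartile, DESeq2 1.42.0, other count filters, the replicate block, each library left out, removal of a smooth trend with gene length and GC content (mgcv 1.9.3), a test against 1.5-fold and, chosen after seeing the data, edgeR's legacy dispersion. Protein sequences were not used here, and 1 of the genes is counted but not reported by name.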

Additional observations from a re-analysis of the deposited data

How the results depend on the processing

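Counts of higher genes were 26 to 27 when any 1 library was left out, and 3 genes stayed lower. With the length and GC trend removed, lower genes numbered 5 in all, 1 epithelial and 2 stromal. With the replicate block as well, they numbered 6 in all, 1 epithelial, 2 stromal and 2 leukocyte. Against 1.5-fold, 1 leukocyte gene was higher, and 18 genes were higher and 2 lower in all. The replicate block, the letter A or B as a term, gave 26 higher and 3 lower genes. The deviations of same-lettered libraries had a correlation of 0.0284 over 10210 genes, so the letters were not taken to pair the libraries. In the whole table the block gave 5418 higher and 5200 lower genes, against 5409 and 5184, DESeq2 4499 and 4041, and the test against 1.5-fold 2032 and 1754. Removal of the length and GC trend gave 4547 higher and 5632 lower genes there, and with the block as well 4578 and 5665. The direction of 5 genes turned under some alternatives. Lama1 was between -0.320 and 0.301 when 1 library was left out. Itgb6 was at -0.12 with the trend removed, -0.16 with the block as well and between -0.0257 and 0.291 with 1 library left out. Itgb4 was at 0.0255 with no filter and between -0.0928 and 0.0563 with 1 library left out, and Lamb2 at 0.0298 and between -0.138 and 0.0738. Itga1 was at -0.0029 with the trend removed and -0.015 with the block as well. Without division by length the differences in 18 of 37 subunit and chain shares stayed within the replicate SD of their first values. Another 18 moved by more than that SD, as did the difference in the share of Itgb1, which turned to -0.0070 percentage points. Apart from the alternatives for Itga1, the 1.5-fold test ended the calls of 9 other genes (Itgb1, Itgb5, Itga2b, Itga6, Lama5, Itgb2, Itga7, Nid2 and Itga8). Causes were not tested, except that a test against 1.5-fold asks for more by construction. Lamc3 and Itgad had too few counts for the filter.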
